A study of Homo sapiens with 6 samples.

Results

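The genes described are the SR proteins and hnRNPs, with the coactivators, kinases and further RNA-binding proteins that act with them in alternative splicing. They were taken as every protein-coding gene whose symbol begins with SRSF or HNRNP, together with TRA2A, TRA2B, PTBP1, PTBP2, PTBP3, RBFOX2, MBNL1, MBNL2, MBNL3, CELF1, QKI, ESRP2, CLK1, CLK2, CLK3, CLK4, SRPK1, SRPK2, SRRM1 and SRRM2. The rule used symbols and no measured value. It found 55 of the 30735 genes listed, of which 12 were SR proteins, 4 SR-like coactivators, 6 SR protein kinases, 26 hnRNP and PTBP genes and 7 other RNA-binding regulators. RNA-seq had been performed in PANC-1, an established human pancreatic ductal adenocarcinoma cell line, comparing 3 samples that had received CD73 siRNA and 3 that had received a negative control siRNA. CD73 is the ecto-5′-nucleotidase encoded by NT5E, and the study compared the groups to see which transcripts respond to its knockdown. The CD73 siRNA was bought under a single catalogue number, whose sequence was not given in the sources used here, so an effect of that reagent and an effect of losing CD73 cannot be told apart. The labels number the samples 1 to 3 in each group, and the study describes separate knockdown experiments. The labels do not say that they were separate cultures, so p-values measure only the spread between these samples, which may be technical.

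SR proteins carry an RNA recognition motif and a tail rich in arginine and serine. Bound to exonic enhancers, they recruit the spliceosome to nearby splice sites, and their kinases, the SRPK and CLK families, phosphorylate the tail and so control where they sit in the cell and when they act. hnRNPs coat nascent transcripts and often oppose SR proteins by silencing splice sites, so that the balance of both groups sets which exons are kept. Many SR and hnRNP genes limit their own level by splicing a poison exon into their transcripts, which are then destroyed by nonsense-mediated decay. All 12 SR protein genes had at least 1 transcript annotated as a target of this decay in GENCODE release 29, with 25 such transcripts in all, and 39 of the 55 genes had at least 1. The deposited values are totals per gene, in which productive and decay-prone transcripts are added together, and inclusion of an exon cannot be read from them.

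NT5E, the targeted gene, was at 3.36, 6.85 and 8.22 RPKM in the CD73 siRNA samples and at 14.0, 13.9 and 17.1 RPKM in the controls. RPKM are reads normalised to the length of the gene and the total of the library. Every knockdown value lay below every control value. The log2 fold change was -1.23 (standard error 0.26, adjusted p = 0.303 by limma, past the unadjusted threshold of 0.01). Library totals worked out from the values were between 15009120 and 16836207 reads. Of the markers of the labelled cell line, KRT8, KRT18 and VIM were well expressed, KRT19 was between 3.59 and 5.39 RPKM, EPCAM between 0.582 and 1.71, and KRT7 did not exceed 0.107. These 6 markers, the mesenchymal VIM among them, summed to 254 to 359 RPKM in the knockdown samples and to 367 to 514 RPKM in the controls. KRT8 lay between 30.0 and 47.5 RPKM in the knockdown and between 72.0 and 158 RPKM in the controls, and the part of this in the values below was not tested. The 3 endocrine, 3 leukocyte and 3 endothelial markers found all stayed below 1 RPKM. Of 3 fibroblast markers COL1A1 was at 8.97 to 19.1 RPKM, while COL1A2 and LUM did not exceed 0.0415 RPKM. Fewer cells of a type and less RNA per cell cannot be told apart in such bulk samples.

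In the fit of all samples, no splicing regulator was called as changed after CD73 siRNA. None of the 53 members tested was called higher and none lower at an unadjusted p below 0.01, the study's threshold for its transcriptome. Over all 12527 genes tested, 1.82% were called higher and 1.31% lower. At an unadjusted p below 0.05, 2 members were past the threshold, SRRM1 and HNRNPF, both with a lower value in the knockdown, against 12.1% of all genes. No member had an adjusted p below 0.05, but only 1 of all 12527 genes tested had one, so this does not set the members apart. A linear model per gene without moderation also called 0 members at p below 0.01. Its share over all genes is not given here. The other 2 members, MBNL3 and the readthrough gene HNRNPUL2-BSCL2, were under the minimum of 1 RPKM in at least 3 samples and had no test. MBNL3, a muscleblind protein, lay between 0.0256 and 0.0983 RPKM, and the readthrough did not exceed 0.0312 RPKM.

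Fold changes of the members were small and their errors narrow. On the log2(RPKM + 1) scale they ran from -0.28 (SRRM1) to 0.30 (HNRNPM), with a median of -0.0040 against 0.0091 over all genes tested. The median size of the change, whatever its sign, was 0.064 for the members and 0.137 for all genes. The median standard error was 0.110 for the members and 0.138 for all genes. In 51 of 53 members the 95% confidence interval lay inside 0.585 in either direction on this scale, which held for 68.9% of all genes. HNRNPM (-0.05 to 0.66) and HNRNPDL (-0.05 to 0.63) were the exceptions. This limit is a 1.5-fold change of RPKM + 1. For members near 1 RPKM, such as HNRNPA1L2 and SRSF12, it allows a larger fold change of RPKM itself. These are also highly expressed genes, with a median of 32.9 RPKM against 6.90 RPKM over all genes tested, and the part of their level in these shares was not tested. An absence of calls does not show that the groups were equal, and the intervals give the sizes of change that remain possible.

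**Figure D1:**
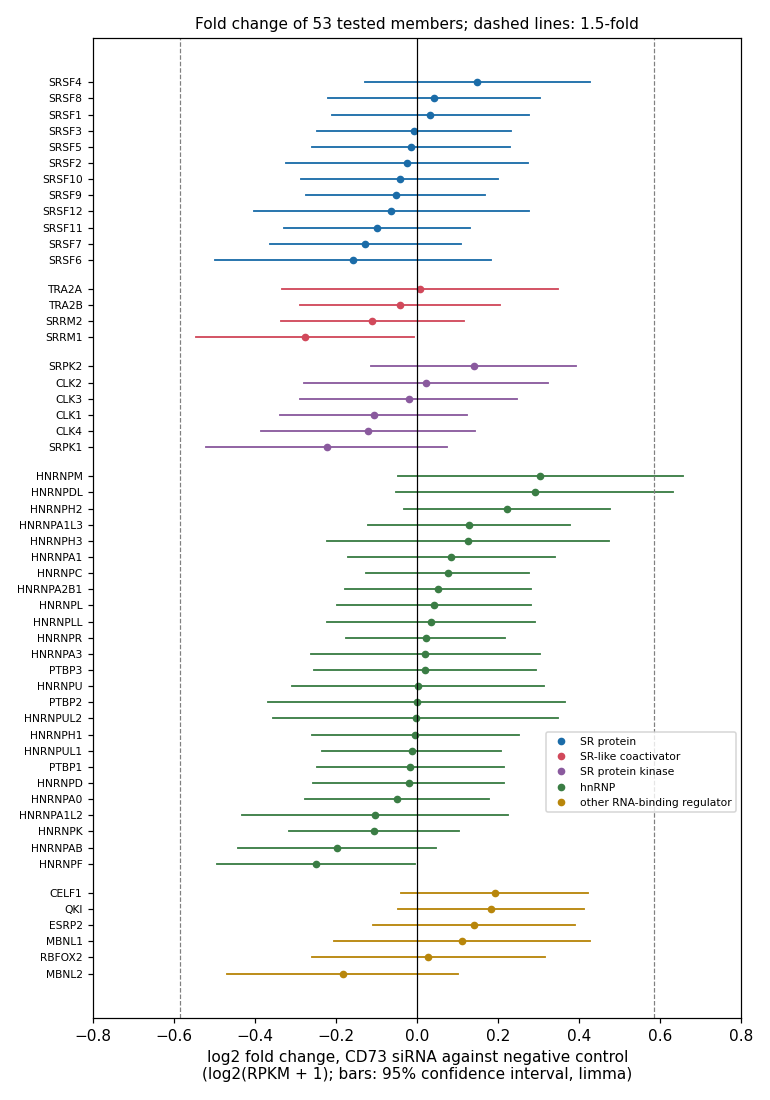
Log2 fold change of each of the 53 tested members between 3 CD73 siRNA and 3 negative control samples (points), grouped by role. Bars are the 95% confidence interval from limma. Dashed lines mark a 1.5-fold change of RPKM + 1, which is a larger change of RPKM in genes of low level. Only the bars of SRRM1 and HNRNPF leave out 0, and only those of HNRNPM and HNRNPDL cross a dashed line.

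All 12 SR proteins were tested, and none had separated groups. Their median log2 fold change was -0.035, from -0.16 (SRSF6) to 0.15 (SRSF4). SRSF7, which also binds export factors and carries spliced mRNA to the cytoplasm, had the smallest p of the group, with 60.6, 53.7 and 54.0 RPKM in the knockdown and 66.0, 56.7 and 61.5 RPKM in the controls. The ranges overlapped between 56.7 and 60.6 RPKM, although the knockdown sample was the lower of the pair with each number. The log2 fold change was -0.13 (standard error 0.10, adjusted p = 0.638). SRSF4 gave 12.3, 13.4 and 14.1 RPKM against 10.4, 13.5 and 11.8 RPKM, again with overlap (log2 fold change 0.15, adjusted p = 0.645). SRSF1, the founding member of the family and a proto-oncogene, averaged 85.8 ± 2.02 RPKM in the knockdown and 84.2 ± 9.11 RPKM in the controls (SD, n = 3 each). SRSF12, a repressor of splicing, was the least expressed SR protein, with 1.12, 1.08 and 0.914 RPKM in the knockdown and 1.26, 1.30 and 0.850 RPKM in the controls. About 58 to 92 reads stood behind each of these values, and the control range covered the knockdown range entirely. The summed level of the SR proteins was 414 to 483 RPKM in the knockdown and 452 to 465 RPKM in the controls.

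Among the 4 SR-like coactivators, SRRM1 stood lowest against its controls. This gene encodes SRm160, a scaffold that bridges SR proteins and the core spliceosome, and lies on chromosome 1 of GRCh38 from 24631716 to 24673267, forward strand. It was at 26.0, 27.0 and 25.7 RPKM in the knockdown samples and at 35.0, 27.3 and 34.2 RPKM in the controls. The groups did not overlap, but negative control replicate 2 lay only just above the knockdown samples. The log2 fold change was -0.28 (standard error 0.12, adjusted p = 0.400). Within the replicate numbers 1, 2 and 3 the log2 differences were -0.42, -0.01 and -0.40. Without negative control replicate 2 the log2 fold change was -0.39 and past the unadjusted threshold of 0.01, with adjusted p = 0.139. That was the only leave-one-out fit that called a member, and it called 6.32% of all genes. SRRM2, a very large partner protein that forms the core of nuclear speckles, also had no overlap, at 78.4, 81.7 and 81.0 RPKM against 96.5, 82.9 and 82.0 RPKM, where control replicate 1 stood apart from the rest (log2 fold change -0.11, adjusted p = 0.678). TRA2A and TRA2B, which bind purine-rich enhancers, had log2 fold changes of 0.01 and -0.04.

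The SR protein kinases had no member past an unadjusted p of 0.05. SRPK1, the cytoplasmic kinase that primes SR proteins for import into the nucleus, had 17.2, 19.2 and 20.7 RPKM in the knockdown and 19.3, 22.4 and 25.7 RPKM in the controls. The ranges overlapped. Both groups ran in the same order over the replicate numbers, and the knockdown sample was the lower in each number, by 0.16, 0.21 and 0.30 on the log2 scale. The log2 fold change was -0.22 (standard error 0.13, adjusted p = 0.508), and -0.13 without negative control replicate 3. Its p fell below 0.05 once the replicate numbers entered the fit as blocks, but not below 0.01 (adjusted p = 0.167). Its relative SRPK2 lay in the other direction, at 13.1, 13.1 and 11.5 RPKM against 11.01, 12.5 and 10.5 RPKM, with overlap (log2 fold change 0.14, adjusted p = 0.632). Of the nuclear CLK kinases, CLK4 gave 3.996, 3.91 and 3.63 RPKM against 4.78, 3.83 and 4.24 RPKM. CLK3 gave 2.31, 2.61 and 2.87 RPKM against 2.61, 2.73 and 2.59 RPKM, and the groups overlapped in both genes. CLK1 and CLK2 had log2 fold changes of -0.11 and 0.02.

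hnRNPs made up the largest group, with 25 members tested and a median log2 fold change of 0.018. Their summed level was 1546 to 1640 RPKM in the knockdown and 1570 to 1641 RPKM in the controls. HNRNPF, which binds runs of guanines near splice and polyadenylation sites, had the smallest p, with 160, 155 and 154 RPKM in the knockdown against 210, 167 and 184 RPKM in the controls. It lies on chromosome 10 of GRCh38 from 43385617 to 43409166, reverse strand. Every control lay above every knockdown sample, and control replicate 2 was again the nearest. The log2 fold change was -0.25 (standard error 0.11, adjusted p = 0.401). Its close homologue HNRNPH2 ran in the other direction, with 60.0, 55.0 and 48.0 RPKM against 46.6, 48.7 and 43.7 RPKM. The knockdown sample was the higher in each number, and only the sample at 48.0 RPKM reached into the control range. The log2 fold change of HNRNPH2 was 0.22 (standard error 0.11, adjusted p = 0.458).

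HNRNPM, which regulates isoforms that differ between epithelial and mesenchymal cells, had the highest fold change of all members. Its values were 71.8, 70.3 and 68.8 RPKM in the knockdown and 44.2, 67.4 and 61.2 RPKM in the controls, and the groups did not overlap. The knockdown samples were close together, and most of the difference lay in control replicate 1. Within the numbers the log2 differences were 0.69, 0.06 and 0.16, and the overall value was 0.30 (standard error 0.15, adjusted p = 0.461). Without negative control replicate 1 it was 0.13. HNRNPDL, a gene that regulates its own RNA through decay-prone isoforms, had the same form, at 50.5, 56.2 and 49.4 RPKM against 34.2, 51.1 and 43.4 RPKM, with overlap (log2 fold change 0.29, adjusted p = 0.474). HNRNPH3 gave 33.2, 36.0 and 33.2 RPKM against 25.6, 39.2 and 30.2 RPKM, so that the control range covered the knockdown range. HNRNPAB had 107, 93.3 and 105 RPKM against 122, 105 and 124 RPKM (log2 fold change -0.20, adjusted p = 0.485), and the groups overlapped narrowly at 105 to 107 RPKM. HNRNPK, a binder of cytosine-rich RNA, did not overlap, at 138, 140 and 131 RPKM against 158, 143 and 141 RPKM, but the gap between the nearest samples was small (log2 fold change -0.11, adjusted p = 0.661).

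PTBP1, the polypyrimidine tract repressor used by most cells, averaged 86.3 ± 7.83 RPKM in the knockdown and 87.2 ± 3.09 RPKM in the controls (SD, n = 3 each). PTBP2, its relative known from neurons, was far lower, at 3.07, 2.38 and 1.77 RPKM against 2.23, 2.36 and 2.52 RPKM. Its within-number log2 differences, 0.34, 0.01 and -0.35, were the most discordant among the members and left a log2 fold change of -0.00095. HNRNPA2B1, a reader of RNA sorting signals, was the most abundant member, with 246, 216 and 207 RPKM against 224, 216 and 204 RPKM. HNRNPC, which packages introns and masks Alu sequences, had 128, 119 and 116 RPKM against 114, 113 and 117 RPKM. Neither gene had separated groups.

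HNRNPA1, a repressor that SRSF1 antagonises, had 143, 160 and 154 RPKM in the knockdown and 126, 158 and 148 RPKM in the controls, with overlap (log2 fold change 0.08, adjusted p = 0.787). Retrotransposed copies of this gene, HNRNPA1L2 and HNRNPA1L3, are members too. Of all 50-base windows of the annotated transcripts, 58.5% of HNRNPA1L2, 51.6% of HNRNPA1L3 and 23.0% of HNRNPA1 also occurred in another annotated gene. A window counted if it matched without a mismatch on either strand. The low values of the copies, 0.829 to 1.37 RPKM for HNRNPA1L2 and 5.13 to 6.56 RPKM for HNRNPA1L3, could therefore hold reads of HNRNPA1 and are uncertain. HNRNPA1L2 was at 1.14, 1.06 and 0.829 RPKM in the knockdown and 1.37, 1.09 and 1.02 RPKM in the controls, on only 19 to 30 reads per sample.

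In the last group, CELF1 and QKI had separated groups in the same direction. CELF1, a binder of GU-rich RNA, was at 19.6, 19.5 and 20.002 RPKM in the knockdown and at 15.5, 17.9 and 18.2 RPKM in the controls (log2 fold change 0.19, standard error 0.10, adjusted p = 0.480). QKI, which binds the Quaking response element and shapes mesenchymal isoforms, was at 20.4, 20.2 and 18.8 RPKM against 16.1, 18.8 and 17.2 RPKM (log2 fold change 0.18, standard error 0.10, adjusted p = 0.492). The nearest QKI samples of the groups, both printed as 18.8 RPKM, were almost level. MBNL2 gave 36.8, 46.0 and 37.6 RPKM against 44.5, 50.7 and 41.7 RPKM, lower in each number although the ranges overlapped (log2 fold change -0.18, adjusted p = 0.575). ESRP2, a regulator of epithelial isoforms, gave 7.98, 8.81 and 9.01 RPKM against 7.28, 8.57 and 7.32 RPKM, also with overlap (log2 fold change 0.14, adjusted p = 0.629). MBNL1 and RBFOX2 had log2 fold changes of 0.11 and 0.03.

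**Figure D2:**
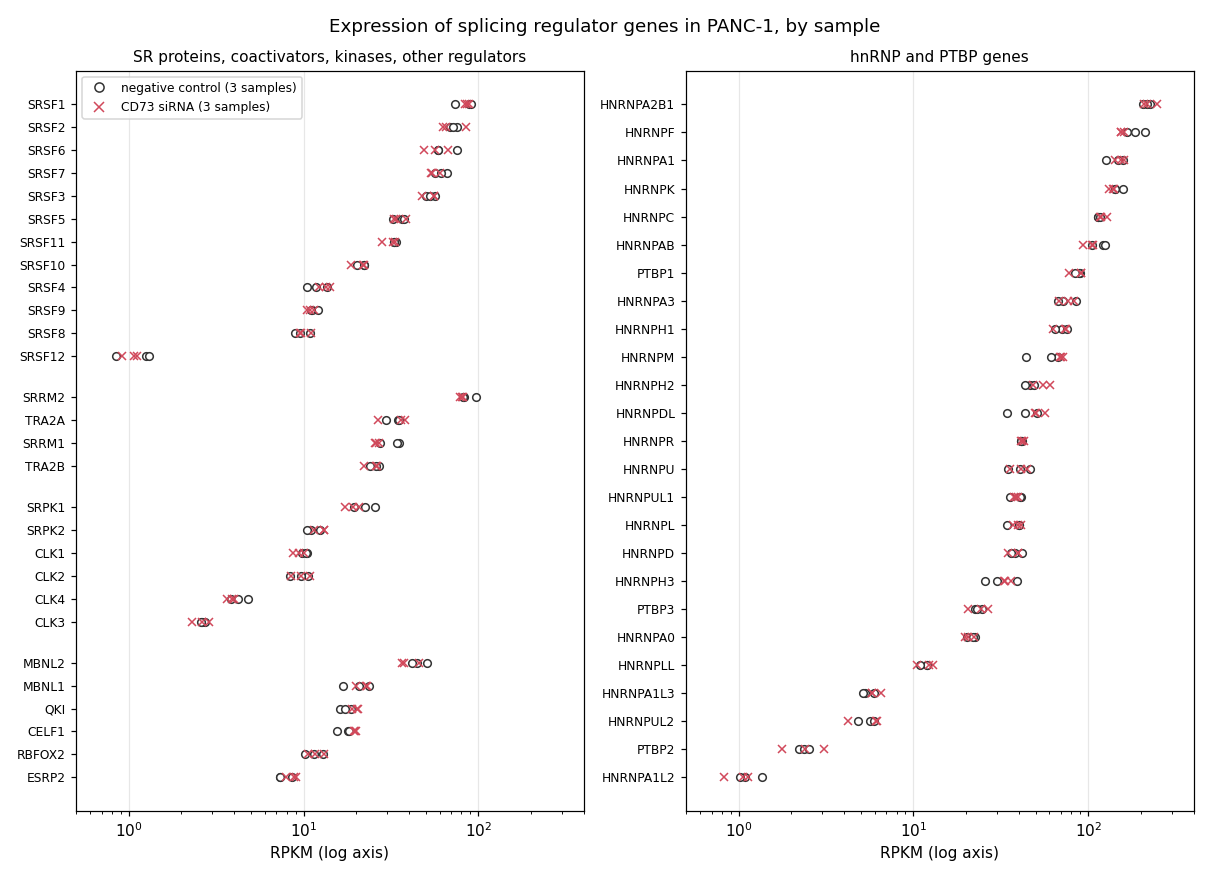
RPKM (log axis) of each of the 53 tested members in the 3 CD73 siRNA samples (crosses) and the 3 negative control samples (circles), ordered by level within each role. The symbols of the groups lie over each other for most genes, and SRRM1, HNRNPF and HNRNPM are among the 7 genes in which they separate.

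In all, 7 members had groups that did not overlap. HNRNPM, CELF1 and QKI lay higher in the knockdown, and SRRM1, SRRM2, HNRNPF and HNRNPK lower. Over all genes tested 18.4% had such groups, which is a larger share than 7 of 53. No two-sided exact permutation test of 3 samples against 3 can give a p below 0.1.

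Values were then compared by replicate number. The difference between knockdown and control had the same sign in all 3 numbers in 20 members, 10 higher and 10 lower, which is 37.7% of the members against 51.4% of all genes tested. The median size of the log2 difference was 0.140 in number 1, 0.045 in number 2 and 0.132 in number 3 for the members, and 0.238, 0.101 and 0.153 for all genes, so that the samples numbered 2 differed least in both sets. The spread between the means of the 3 numbers was larger than the difference between the treatments in 42 of 53 members, or 79.2%, and in 72.9% of all genes. A range over 3 means of sample pairs tends to exceed a difference between group means even without any effect of the number. These shares therefore do not show which effect was larger. A limma F test of the replicate number, chosen after seeing the data, called 0 of 53 members at p below 0.01 and 9.27% of all genes. SRSF6, HNRNPU and TRA2A had the smallest p in that test, all between 0.01 and 0.05. SRSF6 ran from 67.0 to 56.7 and 49.0 RPKM over the knockdown samples and was 75.1, 58.8 and 58.8 RPKM in the controls, so that the samples numbered 1 were the highest of both groups.

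With the replicate number as a block, no member was called at p below 0.01, against 7.57% of all genes. At p below 0.05 the block fit held 7 members, HNRNPF, HNRNPAB, HNRNPDL, SRPK1, HNRNPH2, SRRM1 and MBNL2, against 23.3% of all genes. HNRNPDL and HNRNPH2 lay higher in the knockdown and the others lower.

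**Figure D3:**
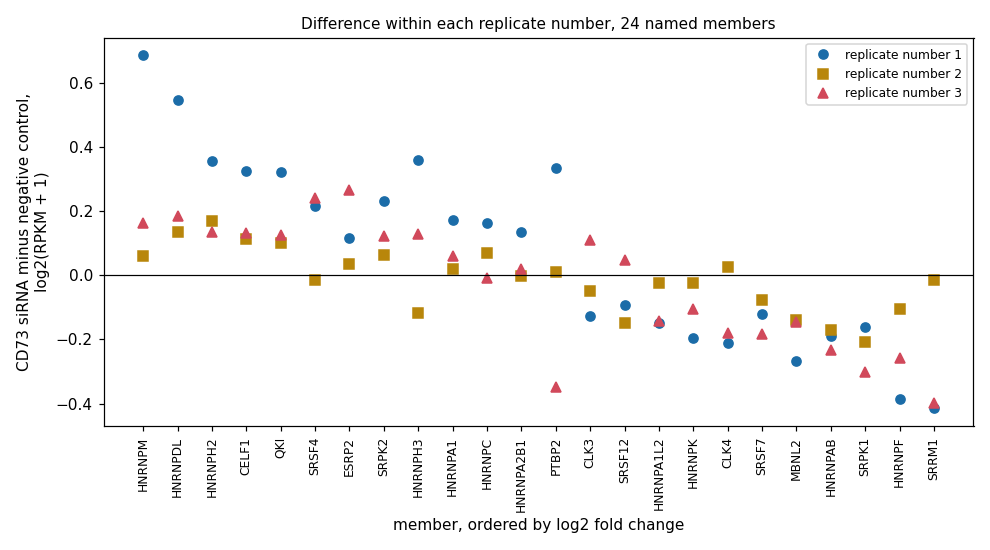
Log2 difference between the CD73 siRNA and the negative control sample of the same replicate number, for 24 members whose values are given by sample, ordered by log2 fold change. SRRM2 and SRSF6, added later, are not drawn. Differences in number 2 (squares) lie nearest 0 for many genes, and PTBP2, HNRNPM and HNRNPH3 have the widest spread between numbers.

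The members covered a broad range of levels. Of the 55, 6 averaged at least 100 RPKM, 36 were between 10 and 100 RPKM, 11 between 1 and 10 RPKM and 2 below 1 RPKM. The highest means over the 6 samples were 219 RPKM for HNRNPA2B1, 172 RPKM for HNRNPF, 148 RPKM for HNRNPA1, 142 RPKM for HNRNPK and 118 RPKM for HNRNPC. In the order of all 55 levels, 47 of the 54 neighbouring genes overlapped in their values over the samples, and only 7 were apart beyond that range. Together the members held 0.889% to 0.957% of all RPKM of a sample, with both of these extremes among the controls.

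The order depends on the length by which reads were divided. The deposited values used the merged length of all annotated exons, which was 1.90 times the length of the principal transcript in the median member and 11.1 times in CLK3. Rescaled to the principal transcript, an alternative chosen after seeing the data, HNRNPA2B1 stayed first at 581 RPKM, while HNRNPC moved from rank 5 to rank 2 at 503 RPKM. HNRNPF moved from rank 2 to 5, SRSF10 from 33 to 12 and RBFOX2 from 41 to 22. Genes with a single annotated transcript kept their value, and among them HNRNPH2 moved from rank 17 to 33. This scale moves levels between genes and leaves the RPKM ratio of the groups within a gene as it was.

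**Figure D4:**
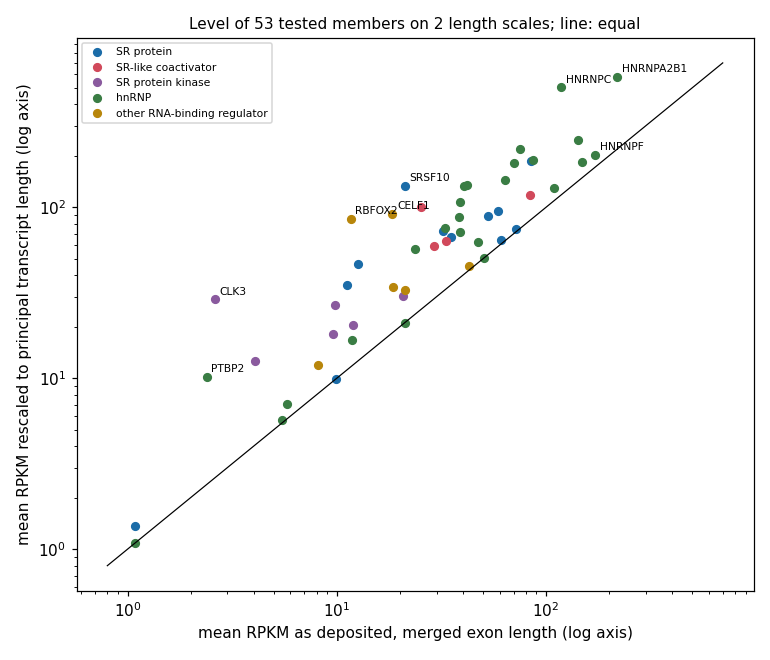
Mean RPKM over 6 samples as deposited (x axis, log) and rescaled to the length of the principal transcript (y axis, log) for the 53 tested members, coloured by role, with the line of equal values. CLK3, RBFOX2 and SRSF10 lie farthest above the line, and genes on it have merged and principal lengths that are the same.

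Shared sequence limits several other members. More than 10% of the 50-base windows occurred in another annotated gene in 15 members, and in 8 members more than 10% of the exon bases overlapped exons of another gene. SRSF1 shared 54.6% of its windows and SRSF9 43.9%, the latter mostly with GATC, while SRSF2 shared 29.2%, mostly with MFSD11, and HNRNPUL2 shared 43.2% with its readthrough. SRRM1 shared 10.5%, and HNRNPA0, HNRNPF, HNRNPLL, MBNL2, MBNL3, PTBP3, QKI, RBFOX2, SRSF7 and TRA2A shared none. Whether the counting used strand was not given in the sources used here, so reads of overlapping genes cannot be told apart.

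Other genes of the splicing pathway were read from 3 further lists. In the core spliceosome, 57 of 58 genes were tested and 1 was called at p below 0.01. Over all genes tested, 1.82% were called higher and 1.31% lower. At p below 0.05 this list held 6 genes, against 12.1% of all genes. The gene called was PRPF19, the ubiquitin ligase that activates the assembled spliceosome. It rose from 39.8, 45.5 and 41.6 RPKM in the controls to 53.03, 52.3 and 55.0 RPKM in the knockdown, with no overlap (log2 fold change 0.33, standard error 0.093, adjusted p = 0.305). Without any 1 of the samples other than control replicate 2, its p was between 0.01 and 0.05 and the call was lost. With the replicate number as a block, 5 core genes were called, all higher in the knockdown, namely PRPF19, SF3B2, PLRG1, PHF5A and SART1. That fit called 7.57% of all genes. No gene tested, in this list or outside it, had an adjusted p below 0.05 in it. SF3B2 and PHF5A are subunits of the complex that holds the branch point. SF3B2 had 49.8, 52.9 and 44.3 RPKM against 20.8, 41.5 and 29.6 RPKM, and PHF5A 37.1, 43.6 and 38.1 RPKM against 20.8, 33.9 and 29.6 RPKM. In both, control replicate 1 was the lowest sample and control replicate 2 the highest control. The median log2 fold change of the list was 0.030.

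Of 47 other splicing regulators 39 were tested and none was called at p below 0.01, with 3 past p of 0.05 against 12.1% of all genes, TAF15 higher and TIAL1 and RBM15 lower. The 16 genes of nonsense-mediated decay and the exon junction complex were all tested. None was called, and 1 was past p of 0.05, against 12.1% of all genes. That gene was UPF2 (adjusted p = 0.394), at 11.8, 12.6 and 11.4 RPKM against 6.34, 10.3 and 10.0 RPKM. The medians of these lists were -0.010 and 0.036 on the log2 scale, beside 0.0091 for all genes tested. U2AF1, the small subunit that reads the 3′ splice site, was listed at only 0.644 to 1.03 RPKM and had no test. U2AF2, of the same list, was at 119 to 172 RPKM. Sequence shared with other genes was examined for the members only, so the low value of U2AF1 is uncertain and may not give its true level.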

How the data were processed

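RNA-seq of 3 CD73 siRNA and 3 negative control PANC-1 samples was analysed. The authors deposited per sample a normalized value for each gene, read here as RPKM. No source used here names this unit. Multiplied by the merged exon length in GENCODE release 29 (hg38), 96.1% to 96.3% of the values worth fewer than 1000 reads came within 0.1 of whole reads, which also gave the library totals. Per the submitters' processing notes, bcl2fastq, Bowtie2 2.2.3 and HTSeq 0.6.0 were used on hg38. The annotation release and strand setting were not given in the sources used here. GENCODE release 29 lacked 132 of the gene identifiers, and 30603 had a name there or in the name table.

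The test was limma 3.58.1 (lmFit, eBayes with trend, two-sided) in R 4.3.3 on log2(RPKM + 1). It was run on the 12527 genes that reached 1 RPKM in 3 or more samples. Genes were called at an unadjusted p below 0.01, with Benjamini-Hochberg adjusted p over all genes beside it. A pseudocount of 1 understates changes of low genes. Scripts were tested on simulated data. Within-number deviations from the group means correlated at 0.197, 0.481 and 0.553 for numbers 1, 2 and 3, and those of different numbers at -0.439 to -0.006. Deviations within a group sum to 0, so these correlations depend on each other and give limited support for pairs. The numbers, which come from the labels, were taken as pairs on this basis, and a fit with the number as a block was run. Other alternatives were a pseudocount of 0.1, no filter, quantile normalization, median centring, no moderation and each sample left out.

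Values by sample are given for the 15 members with the smallest p, the 5 highest and 5 lowest in level, and the 5 with the widest spread over numbers. SRRM2, SRSF1, SRSF6, PTBP1, HNRNPA1L3 and the genes of the other lists not called in the fit without a block were added after their values were seen. The members and lists were chosen with earlier results of these data known. A sequence comparison of HNRNPA1 with its copies is not reported here.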

Additional observations from a re-analysis of the deposited data

How the results depend on the processing

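The count of members called higher was 0 under every alternative run, and the count called lower was 0 except in the leave-one-out fits, where it ranged from 0 to 1. The call was SRRM1 without negative control replicate 2. Core spliceosome calls went from 1 to 5 with the replicate block and ranged from 0 to 6 when a sample was left out, with 6 without negative control replicate 2. Calls over all genes rose as well. The main fit called 1.82% higher and 1.31% lower, the block fit 7.57% and the fit without negative control replicate 2 6.32%. Calls among other splicing regulators went from 0 to 1 with no filter on low values and to 1 with no moderation, and ranged from 0 to 1 when a sample was left out, as did those of the decay and exon junction genes. The block changed no other call. Members with separated groups ranged from 9 to 19 when a sample was left out, where fewer samples separate more easily, and 20 members had the same sign in all 3 same-numbered pairs. The median log2 fold change of the members ranged from -0.0411 to 0.0374. NT5E stayed at -1.2251 with no moderation, where it was no longer past 0.01. The block, no moderation and no filter leave a log2 fold change as it was, so no sign could turn in those comparisons. None of the named members was called in the main fit. Across the 24 named members and 288 comparisons, 281 kept their direction and side of the threshold and 6 turned sign, in 5 genes, all when a sample was left out. The ranges were -0.0760 to 0.0376 for CLK3, -0.0059 to 0.1545 for HNRNPA1, -0.0214 to 0.1026 for HNRNPA2B1, -0.0129 to 0.2838 for HNRNPH3 and -0.1385 to 0.1401 for PTBP2. The cause was not tested. Leaving out a sample moved the log2 fold change by over 1.5 times in 19 of the 24 named members. No outlier test was run, since it needs at least 4 samples a group.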

Other observations

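Pseudogenes of the hnRNP and SR protein families were listed as well and are no members. Of 50 listed, 8 passed the minimum level, all of the hnRNP family, and together the 50 summed to between 31.6 and 37.9 RPKM per sample. HNRNPCP2 was the highest, at 10.7, 9.66 and 10.9 RPKM in the CD73 siRNA samples and 10.9, 12.9 and 12.6 RPKM in the controls. None of the 8 was past an unadjusted p of 0.01 by limma, and 1 was past 0.05, against 12.1% of all genes tested. It was HNRNPA1P16 (log2 fold change 0.48), with 1.89, 1.60 and 1.37 RPKM against 1.04, 1.15 and 0.488 RPKM, at a level near the minimum. The copies of parent sequence in these pseudogenes make their values uncertain in the same way as those of HNRNPA1L2 and HNRNPA1L3.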
